A study of Mus musculus with 4 samples.

Results

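The 9 genes described here encode calcium-linked and sugar-binding proteins of lymphocytes: the S100 genes S100a4, S100a6, S100a10 and S100a11, the annexin genes Anxa1, Anxa2 and Anxa6, and the galectin genes Lgals1 and Lgals3. They were found by matching the Ensembl identifiers of the deposited tables to mouse symbols, and all 9 were among the 50686 identifiers. After a filter on low counts, 8 of them were among the 15394 genes tested, and S100a4 was not. The counts come from bulk RNA-seq of mouse cells taken from spleen and lymph node, with RNA drawn from cell culture. The 4 libraries cross genotype (WT or Yap KO) with state (unstimulated or stimulated), with a single library for each combination, and all titles carry the replicate number 1. Both stimulated titles carry the number 24 without a unit, and the unstimulated titles carry none. The strain and age of the animals, the stimulus, the cell type, the Yap allele and the way it was deleted are not stated in the labels used here. Each genotype is thus 1 source of cells, and genotype and source cannot be told apart.

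Total reads in genes ran from 19935523 to 25419974 per library. Yap1 had at most 3 reads in any library, too few for a check of the genotypes. Cd8a stood at 822 and 784 CPM (counts-per-million units, scaled between libraries by TMM, with libraries always listed WT before Yap KO) without stimulation, and Cd3e, a subunit of the T cell receptor complex, at 902 and 955 CPM. Cd4 had at most 3 reads in any library. In bulk RNA, more cells of a type and more RNA per cell cannot be told apart, and this holds for every difference below.

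S100 proteins are small calcium-binding proteins that mostly act as dimers and change the activity of partner proteins. Annexins bind to acidic membrane lipids in the presence of calcium, and annexin A2 forms a complex with S100A10 at the plasma membrane, to which the giant scaffold protein AHNAK can be tethered. Annexin A1 is known as an anti-inflammatory mediator that acts through formyl peptide receptors. Galectins bind beta-galactosides on glycoproteins, and galectin-1 and galectin-3 bind glycans on T cell surface proteins. In T cells, several of these genes are known to be transcribed more in memory and effector cells than in naive cells.

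The positions come from GENCODE M21 on GRCm38. The S100 genes lie on chromosome 3: S100a4 from 90603771 to 90606045, S100a6 from 90612882 to 90624181, S100a11 from 93520488 to 93526287 and S100a10 from 93555080 to 93564643. S100a4 and S100a6 are 6.84 kb apart, and S100a11 and S100a10 28.8 kb apart. The annexin genes lie on 3 chromosomes, Anxa1 on chromosome 19 from 20373428 to 20390944, Anxa2 on chromosome 9 from 69453620 to 69491795 and Anxa6 on chromosome 11 from 54979108 to 55033445. Lgals1 lies on chromosome 15 from 78926725 to 78930465 and Lgals3 on chromosome 14 from 47367751 to 47386160. Anxa1 and Anxa6 are on the minus strand and the other members on the plus strand. The tables give 1 count per gene, so no exon, intron or UTR is resolved.

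For S100a4 and S100a11 the gene models limit what could be counted. Of the 584 exon bases of S100a4, 302 are also exon of Gm42674, a gene on the same strand that starts before S100a4 and ends within it. Gm42674 was listed at 0 reads in all 4 libraries, and reads that fit more than 1 gene stood in a summary entry of ambiguous reads, which held 0.635 to 0.755% of each table. How many S100a4 reads stand there was not tested, so the counts of S100a4 may be incomplete and it is left out of the order of levels. In S100a11, 48.9% of the 31-base words of its transcripts occur in another gene too, and reads aligned in more than 1 place stood in a summary entry, not under genes. Such words made up 0.424% of S100a10 and 0% of S100a6 and of the annexin and galectin members. Of the 3731 exon bases of Anxa2, 98 lie opposite the noncoding gene Gm16144, which had 5 to 13 reads per library against 959 to 4872 for Anxa2.

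Promoter sequences were held for 6 of the 9 genes in the RefSeq table (GRCm38.p6), in windows of 250 bases before the RefSeq start. The windows of Anxa1 and Lgals3 lie inside the longer gene spans of GENCODE given above, and that of Anxa1 overlaps an exon there, so it is not shown. Of the 6, 3 are shown, because S100a6 had the largest genotype difference of the tested members, Anxa2 was the 1 member that rose with stimulation, and S100a11 and Anxa2 held a match to the AP-1 letters. The bases that GENCODE models as exon are left off the end. Capitals mark the AP-1 letters TGANTCA, and the strand is plus in each. S100a6 is shown over chr3:90612644-90612881, S100a11 over chr3:93520246-93520487 and Anxa2 over chr9:69453433-69453619.
S100a6: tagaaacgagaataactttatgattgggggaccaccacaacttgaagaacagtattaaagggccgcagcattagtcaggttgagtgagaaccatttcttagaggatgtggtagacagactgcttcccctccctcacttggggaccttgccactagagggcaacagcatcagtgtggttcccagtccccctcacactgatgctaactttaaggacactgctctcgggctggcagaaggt
S100a11: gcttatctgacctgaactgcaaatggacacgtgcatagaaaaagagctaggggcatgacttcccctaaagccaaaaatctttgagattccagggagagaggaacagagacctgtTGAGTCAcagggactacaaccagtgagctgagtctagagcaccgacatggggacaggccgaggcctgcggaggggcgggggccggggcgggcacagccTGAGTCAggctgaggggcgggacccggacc
Anxa2: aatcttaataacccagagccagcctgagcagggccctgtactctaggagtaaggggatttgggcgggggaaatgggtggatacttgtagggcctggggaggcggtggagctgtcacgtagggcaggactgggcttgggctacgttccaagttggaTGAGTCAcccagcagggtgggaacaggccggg
TGANTCA was found in 2 of the 6 promoters and in 6.75% of all 32851 promoter windows of the same length, on either strand. The S100a11 window held it at 2 places, from 136 to 130 and from 38 to 32 bases before the RefSeq start, and the Anxa2 window at 1, from 95 to 89 bases before it. The TEAD core letters GGAATG, searched for because YAP acts through TEAD factors, were found on either strand in 1 of the 6 promoters, the Anxa1 window inside the gene span, and in 12.6% of all windows. The windows of S100a4, S100a6 and Lgals3 held neither. A match is a description of letters in this window and is not a binding site.

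The 9 genes together took 1100 (WT) and 1487 CPM (Yap KO), here and in sums over gene lists without TMM scaling, before stimulation and 603 and 621 after it. Anxa6 made up 77.9 and 68.7% of these reads before stimulation and 35.8 and 34.3% after it. The share of Anxa2 went from 3.95 and 8.30% to 38.5 and 30.6%. The bars of reads per library show these levels gene by gene.

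**Figure D1:**
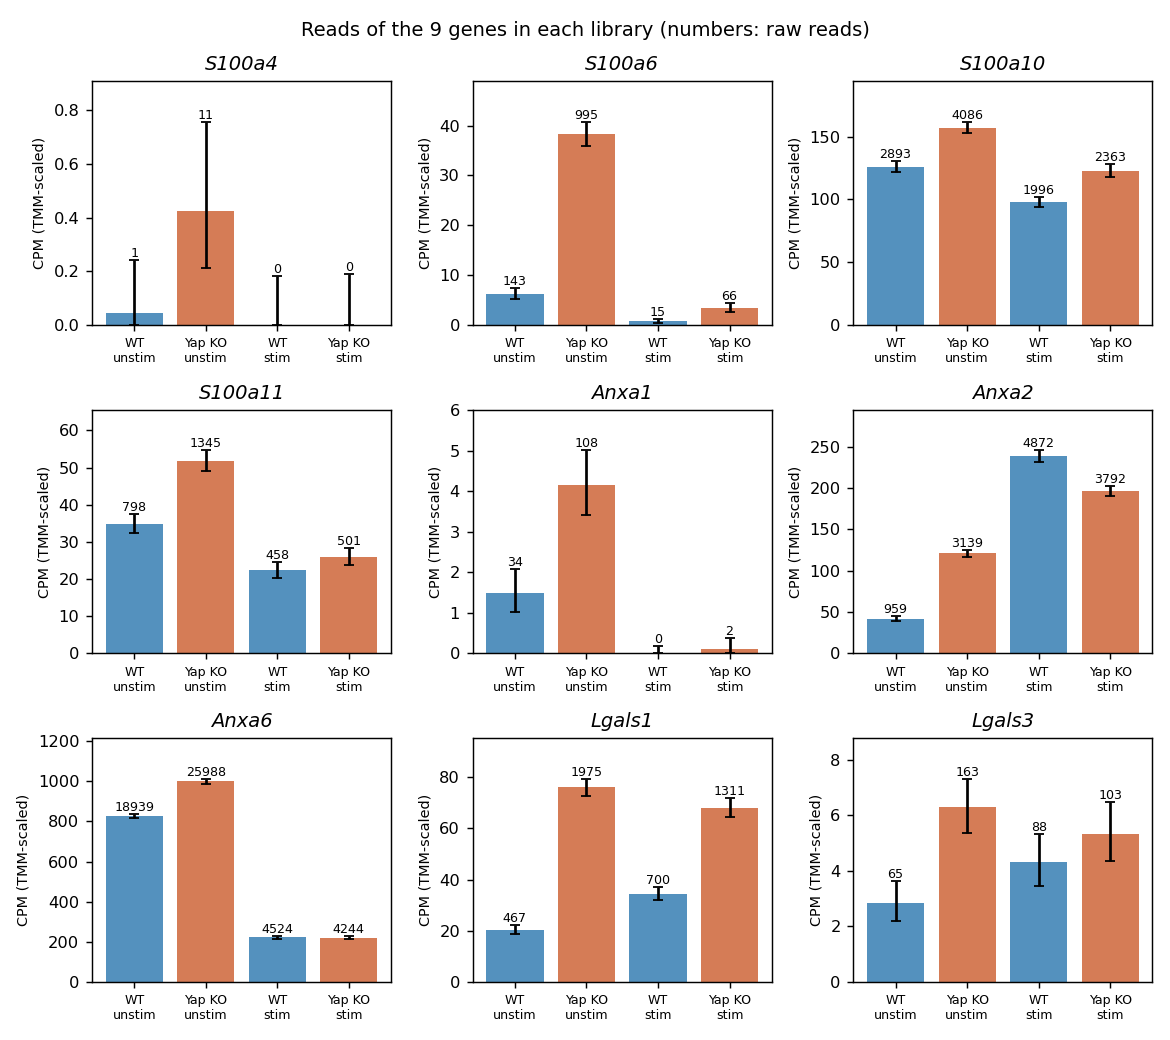
Level of each of the 9 genes in each library, in CPM on a linear axis from 0 that differs between panels; bars are 1 library each, blue for WT and orange for Yap KO, error bars are exact 95% Poisson intervals of the count, and the numbers are raw reads. In all 9 panels the Yap KO unstimulated bar is above the WT unstimulated bar, and Anxa2 is the only gene with its lowest level in WT unstimulated and its highest in WT stimulated cells.

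S100a6, whose protein binds calcium and the adaptor CACYBP among others, stood at 6.25 (WT) and 38.3 CPM (Yap KO) before stimulation and at 0.735 and 3.42 CPM after it. Both unstimulated libraries lay above both stimulated ones, and within each state Yap KO lay above WT. S100a10, the partner of annexin A2, stood at 126 and 157 CPM before and 97.8 and 123 CPM after stimulation, with the lowest level in stimulated WT cells. S100a11, a dimeric S100 protein that binds annexins, stood at 34.9 and 51.8 and then 22.4 and 26.0 CPM. In both genotypes S100a10 and S100a11 were lower after stimulation. S100a4, known for binding non-muscle myosin, had 1 and 11 reads before stimulation and 0 in both libraries after it.

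Anxa2 stood at 41.9 (WT) and 121 CPM (Yap KO) before stimulation and at 239 and 197 CPM after it. Both stimulated libraries lay above both unstimulated ones, and the order of the genotypes turned over between the states. Anxa6, a long annexin with a doubled core, stood at 827 and 1001 and then 222 and 220 CPM, so the states did not overlap and the genotypes were close. Before stimulation Anxa1 had 34 reads or 1.49 CPM (WT) and 108 reads or 4.16 CPM (Yap KO), and after it 0 and 2 reads. Its stimulated counts were at or under the floor of 3 counts per library, which is 0.118 to 0.150 CPM before TMM scaling.

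Lgals1, which encodes galectin-1, stood at 20.4 (WT) and 76.1 CPM (Yap KO) before stimulation and at 34.3 and 68.0 CPM after it. Here both Yap KO libraries lay above both WT libraries. Lgals3, which encodes the only chimera-type galectin, stood at 2.84 and 6.28 and then 4.31 and 5.34 CPM, with 65 to 163 reads behind each value; its stimulated levels in the 2 genotypes were close.

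Per kilobase of exon, Anxa6 was the highest of the 9 genes in both unstimulated libraries, at 282 CPM per kb in WT and 342 in Yap KO, above 99.0 and 99.1% of the tested genes. In both it was followed by S100a10 (104 and 130 CPM per kb), S100a11 (68.2 and 101), Lgals1 (22.6 and 84.3), Anxa2 (11.2 and 32.4), S100a6 (4.57 and 28.0), Lgals3 (1.53 and 3.38) and Anxa1 (0.510 and 1.43). The exact counting intervals of neighbours in this order did not overlap in either library, with S100a4 left out. The level of S100a6 stood above 47.7% of tested genes in WT and above 86.6% in Yap KO unstimulated cells. After stimulation S100a10 came first, at 80.7 CPM per kb in WT and 101 in Yap KO. In WT its interval overlapped that of Anxa6 (75.7), with Anxa2 (64.0), S100a11 (43.9) and Lgals1 (38.0) next, the last pair overlapping. In Yap KO, Lgals1 (75.3) and Anxa6 (75.1) overlapped, as did Anxa2 (52.7) and S100a11 (50.8). Levels of S100a11 rest on reads that aligned in 1 place only. Exon length here counts the bases of all annotated transcripts of a gene. Which transcripts were in use is not known, and the order depends on it.

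Genotype was compared first, within each state and then over both. In the unstimulated libraries all 9 genes were higher in Yap KO, by 1.21-fold for Anxa6 up to 6.14-fold for S100a6 among the tested genes, and each counting interval excluded no difference. In the stimulated libraries S100a6, Lgals1, S100a10 and S100a11 were higher in Yap KO beyond counting error, Anxa2 was lower, and the intervals of Anxa6 and Lgals3 held no difference. The additive fit over both states called S100a6 and Lgals1 higher in Yap KO and none of the 9 genes lower. The p-values set the size of the difference against a spread. That spread comes from how unlike the genotype difference was in the 2 states and, for the larger part, from all tested genes. It is not the spread between cultures or animals, of which each genotype had 1 source.

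S100a6 had 995 reads in Yap KO against 143 in WT before stimulation, 6.14-fold (95% interval 5.15 to 7.37), and 66 against 15 after it, 4.66-fold (2.63 to 8.78). The additive log2 difference was 2.53 ± 0.25 (SE, edgeR quasi-likelihood adjusted p = 0.00205). Lgals1 had 1975 against 467 reads before stimulation, 3.73-fold (3.37 to 4.14), and 1311 against 700 after it, 1.98-fold (1.81 to 2.18). Its additive log2 difference was 1.44 ± 0.21 (edgeR adjusted p = 0.0125). The call of Lgals1 was lost with no filter on low counts (adjusted p = 0.165), and both calls were lost in a fit with genotype as the only term (adjusted p = 1), in which the difference between states counts as error. Over all alternatives the adjusted p ran from 4.67e-07 to 1 for S100a6 and from 1.3e-05 to 1 for Lgals1.

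Anxa2 was 2.89-fold higher in Yap KO before stimulation (2.68 to 3.11) and stood at 0.823 of the WT level after it (0.789 to 0.859), so the additive fit gave 0.61 ± 0.34 on the log2 scale (edgeR adjusted p = 0.552). Anxa1 was 2.80-fold higher before stimulation (1.89 to 4.25), and no ratio was formed from its 0 and 2 stimulated reads. Lgals3 was 2.21-fold higher (1.65 to 3.00) and then 1.24-fold (0.923 to 1.67). S100a10 kept the same ratio in both states, 1.25-fold (1.19 to 1.31) and 1.25-fold (1.18 to 1.33), and had an adjusted p of 0.330 in the edgeR fit. S100a11 was 1.49-fold higher (1.36 to 1.62) and then 1.16-fold (1.02 to 1.32). Anxa6 was 1.21-fold higher (1.19 to 1.23) and then at 0.993 of WT (0.952 to 1.04). For S100a4, the 11 reads against 1 gave 9.70-fold with an interval from 1.41 to 418.

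**Figure D2:**
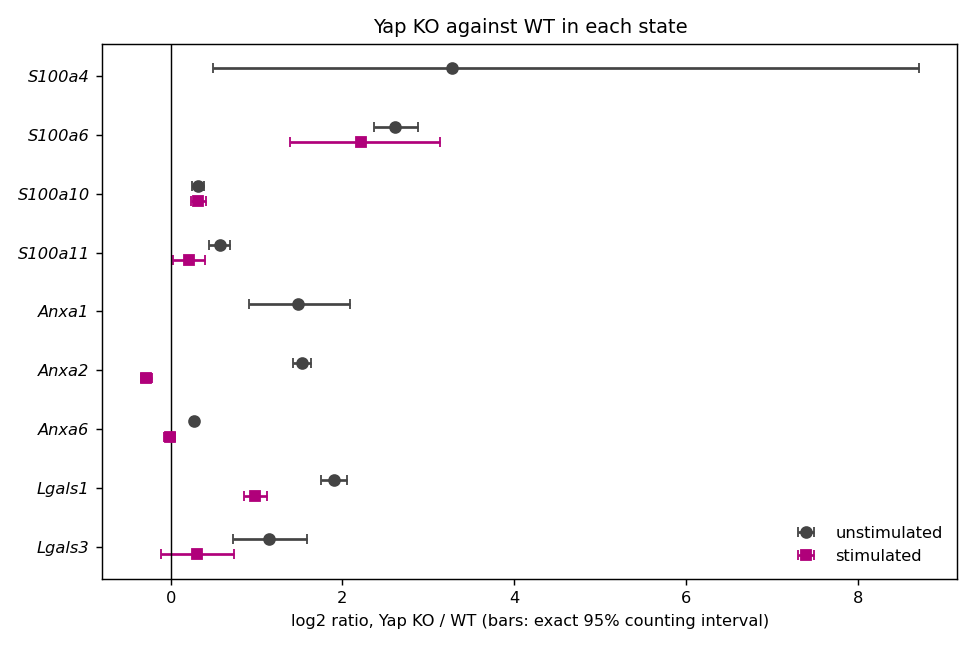
Log2 ratio of Yap KO to WT for each gene, from 1 library against 1 library, with circles for unstimulated and squares for stimulated cells; bars are exact 95% intervals that cover counting error only, and no ratio is drawn where both counts were at or under 3 reads. The circles lie above 0 for all 9 genes, and among the squares S100a6 is highest and Anxa2 lies below 0.

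Against all genes, 2 of the 8 tested members were called higher in Yap KO in the additive fit, where 0.838% of the 15394 tested genes were, and none was called lower, where 0.559% were. At an unadjusted p under 0.05 the edgeR fit placed S100a6, S100a10, S100a11, Anxa1, Lgals1 and Lgals3 higher, and 6.06% of all genes, and placed no member lower. DESeq2 also called 2 members higher and none lower. All 8 tested members had an unstimulated interval above 0, against 29.1% of tested genes, and 4 had a stimulated interval above 0, against 23.9%. Both intervals were above 0 for S100a6, S100a10, S100a11 and Lgals1, and for 10.8% of tested genes. At least 2-fold higher in unstimulated Yap KO cells were 5 of the 8 (S100a6, Anxa1, Anxa2, Lgals1 and Lgals3) and 4.10% of tested genes, and in stimulated cells 1 of the 8 (S100a6) and 3.08%. At least 2-fold lower were none of the members in either state, against 3.26% of tested genes before and 4.42% after stimulation. Lgals1, at 1.98-fold, lay just under that size. The median log2 ratio of the tested members was 1.27 before and 0.31 after stimulation, with 0.03 and 0.00 over all tested genes. Since the members were chosen with earlier results of these data known, these shares describe them and are no test.

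Of 28 memory and effector T cell genes, 11 passed the test over both states with a higher level in Yap KO and none with a lower one (22 and 0 at an unadjusted p under 0.05 in edgeR, 11 and 0 with DESeq2), where 0.838% of all tested genes were higher. An unstimulated ratio above 0 was found for 26 of the 28 and for 53.9% of all tested genes, and the median log2 ratio of the 28 was 1.12 before and 0.46 after stimulation. Klrc1, an NK-type receptor subunit, stood at 12.1 and 66.0 CPM before and 9.56 and 59.2 CPM after stimulation in the 2 genotypes. Cxcr3, a chemokine receptor, stood at 43.3 and 179 CPM and then 6.22 and 36.6 CPM. The lowest genotype differences of the list among genes averaging 10 CPM or more were those of Itga4 (-0.32 ± 0.17, edgeR adjusted p = 0.520) and Id2 (-0.21 ± 0.13, edgeR adjusted p = 0.594). Of 17 naive T cell genes none was called higher (1 at an unadjusted p under 0.05 in edgeR, 0 with DESeq2). Called lower was 1, Ccr9, whose exons lie opposite another gene, where 0.559% of all tested genes were. At an unadjusted p under 0.05 in edgeR 4 of the 17 were lower, and DESeq2 called 1 lower. The median log2 ratios of the 17 were -0.06 before and -0.02 after stimulation. Summed over each list, memory and effector genes took 3622 (WT) and 6655 CPM (Yap KO) before stimulation and naive genes 11539 and 10650. This list and the other gene lists were chosen with earlier results of these data known, so their counts beside the shares over all genes are description only. Ahnak and Itgb1, described below as partners, are 2 of the 28. The part of such cells in the genotype difference of the 9 genes was not tested.

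**Figure D3:**
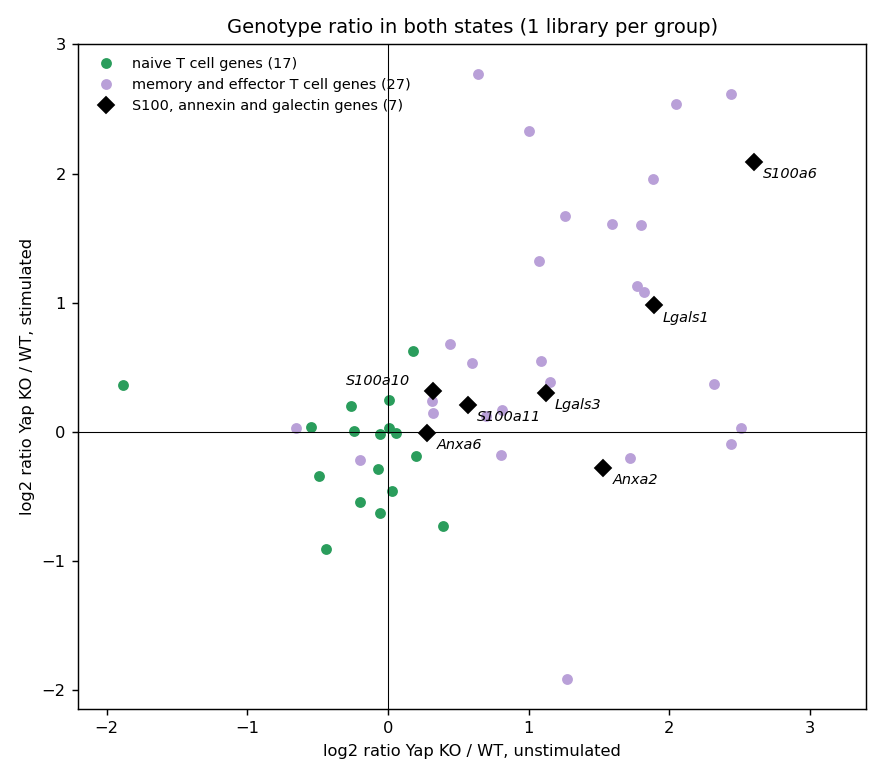
Log2 ratio of Yap KO to WT in unstimulated cells (horizontal) and in stimulated cells (vertical) for 7 of the 9 genes (black diamonds), 27 memory and effector genes (violet) and 17 naive genes (green), 1 library per group; genes with at most 3 reads in both libraries of a state are left out. S100a6 and Lgals1 lie to the upper right, and Anxa2 lies right of 0 and below it.

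Markers of other cell types that can transcribe these genes are given as summed CPM over each list. The 12 monocyte and macrophage markers summed to 28.1 (WT) and 34.1 (Yap KO) before stimulation and to 17.7 and 23.4 after it. Of these Csf1r, which lies opposite another gene, stood at 15.8 and 16.8 and then 14.3 and 20.5 CPM, and Fcgr1, C1qa and C1qc had at most 3 reads in any library. None of the 4 that passed the filter was called by genotype, also not at an unadjusted p under 0.05 in edgeR or with DESeq2, which gave 1 of them no adjusted p. The 9 neutrophil markers summed to 4.71 and 1.61 before and 0.0477 and 0.301 after stimulation, and the 6 B cell markers to 101 and 127 and then 16.9 and 28.7. The 7 dendritic cell markers summed to 15.8 and 39.6 and then 14.8 and 31.5, with Itgax, which activated T cells also express, called higher. The 4 NK markers summed to 5.84 and 19.7 and then 1.19 and 1.76. Of the 9 stromal and endothelial markers 3 were tested, and Pdgfrb was called higher, where 0.838% of all tested genes were. DESeq2 called 0 of the 3 and gave 1 of them no adjusted p. Col3a1, Pdgfra, Cdh5, Cldn5 and Dcn had at most 3 reads. The 10 markers of type 17 and gamma-delta T cells summed to 308 and 556 and then 43.0 and 157, with 6 of 10 called higher in Yap KO (3 with DESeq2), where 0.838% of all tested genes were. Single genes carried much of these sums. Trdc, which lies opposite another gene, stood at 232 and 351 and then 22.6 and 33.5 CPM, and Il17f at 0.175 and 0.0771 and then 9.75 and 88.1 CPM. The part of these cells in the genotype difference was not tested either.

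State was compared next, over both genotypes. Anxa1, S100a6, Anxa6, S100a11 and S100a10 fell and Anxa2 rose, while Lgals1 and Lgals3 did not pass the test. In stimulated WT cells S100a6 was left with 15 reads and Anxa1 with 0. Because only the stimulated titles carry a number, stimulus and time in culture cannot be told apart.

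S100a6 was 8.50-fold lower in stimulated WT cells (from 4.98 to 15.6) and 11.2-fold lower in stimulated Yap KO cells (8.73 to 14.6), a change of -3.37 ± 0.26 on the log2 scale in the additive fit (edgeR adjusted p = 4.28e-06). Anxa1 was at least 10.1-fold lower in WT, from 34 reads to 0, and 40.1-fold lower in Yap KO (10.8 to 336), from 108 reads to 2 (edgeR adjusted p = 5.45e-05). Anxa6 was 3.73-fold (3.61 to 3.86) and 4.55-fold (4.41 to 4.70) lower, with -2.04 ± 0.14 on the log2 scale (edgeR adjusted p = 1.68e-06). The fall was thus present in both genotypes for each of these genes. S100a4 went from 11 reads to 0 in Yap KO, at least 2.72-fold lower, and from 1 read to 0 in WT, where no ratio was formed.

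S100a11 was 1.55-fold (1.38 to 1.75) lower in WT and 2.00-fold (1.80 to 2.22) lower in Yap KO, with -0.82 ± 0.16 on the log2 scale (edgeR adjusted p = 0.00154). S100a10 was 1.29-fold lower in each genotype (1.22 to 1.37 in WT and 1.22 to 1.35 in Yap KO), a log2 change of -0.37 ± 0.12 (edgeR adjusted p = 0.0218). That call was lost with DESeq2 (adjusted p = 0.0555), with no filter on low counts (0.0501) and with state as the only term (0.0980), within a range over all alternatives of 0.00635 to 0.0980. These S100 genes thus had the smallest falls of the 5 called genes.

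Anxa2 was 5.70-fold higher in stimulated WT cells (5.32 to 6.11) and 1.63-fold higher in stimulated Yap KO cells (1.55 to 1.70), with 1.59 ± 0.34 on the log2 scale (edgeR adjusted p = 0.00259). The unequal response counts as error in the additive fit, and the call was lost with DESeq2 (adjusted p = 0.0781) and with a robust fit (0.105), within a range of 0.00217 to 0.105. Lgals1 was 1.68-fold higher in WT (1.49 to 1.89) and stood at 0.893 of its unstimulated level in Yap KO (0.832 to 0.958). Lgals3 was 1.52-fold higher in WT (1.09 to 2.13) and stood at 0.850 in Yap KO (0.658 to 1.09). The edgeR adjusted p was 0.266 for Lgals1 and 0.714 for Lgals3.

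**Figure D4:**
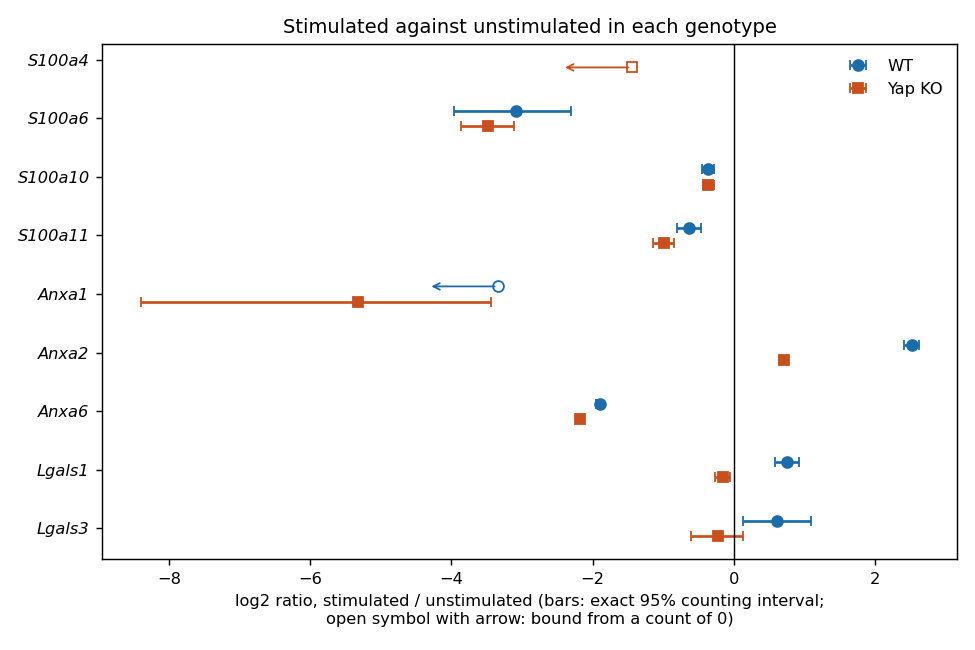
Log2 ratio of stimulated to unstimulated cells for each gene in WT (circles) and Yap KO (squares), from 1 library against 1 library, with exact 95% intervals that cover counting error only; open symbols with arrows are bounds set by a count of 0 against a floor of 3 reads. Anxa2 lies above 0 in both genotypes, 5 tested genes lie below 0 in both, and Lgals1 and Lgals3 lie on opposite sides.

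Of the 8 tested members 5 fell and 1 rose, while 34.1% of all tested genes fell and 33.3% rose. At least 2-fold lower in WT were 3 members (S100a6, Anxa1 and Anxa6), as were 24.2% of tested genes, and 1 was at least 2-fold higher (Anxa2), as were 23.4%. In Yap KO the same 3 tested members were at least 2-fold lower, against 25.4% of tested genes, and none was 2-fold higher, against 22.5%. The untested S100a4 was lower by that size too, and S100a11, at a log2 ratio of -0.99, lay just under it. With S100a4 the count lower was 4, and it became 5 with library size only and with upper-quartile scaling. The median log2 ratio of the tested members was -0.50 in WT and -0.68 in Yap KO, with -0.02 and -0.05 over all tested genes. Most genes of the T cell lists were also lower after stimulation. All 8 general T cell markers fell, summing to 4724 (WT) and 5053 CPM (Yap KO) before stimulation and 1850 and 1748 after it. Of the 17 naive genes 14 fell and 2 rose, and of the 28 memory and effector genes 19 fell and 6 rose. Of 3 regulatory T cell markers, Il2ra, also an activation gene, rose from 4.28 and 12.2 to 699 and 902 CPM. Foxp3, the defining factor, stood at 12.7 and 8.01 and then 11.5 and 8.66 CPM, and Ikzf2 at 11.6 and 8.55 and then 17.6 and 3.06 CPM. The stromal and endothelial sum went from 164 and 141 to 11.5 and 10.5. Most of that sum in each library was Pecam1, which stood at 156 (WT) and 118 CPM (Yap KO) before stimulation. The fall of the sum is thus mainly that of a single gene. All 3 tested markers of this list fell, and whether such cells were lost was not tested. The B cell and neutrophil sums given above were lower after stimulation too. The part of these cells in the state differences was not tested.

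Among the tested members the response to stimulation differed most between genotypes for Anxa2, by -1.81 on the log2 scale (Yap KO minus WT, normal 95% counting interval -1.93 to -1.69). It was the 1 member past 2-fold, as were 4.70% of tested genes in this direction, and no member passed 2-fold in the other direction, as 3.03% did. The differences for Lgals1 (-0.91, from -1.11 to -0.71) and Lgals3 (-0.82, from -1.39 to -0.24) had the same sign, followed by S100a11 (-0.36, from -0.58 to -0.14) and Anxa6 (-0.29, from -0.35 to -0.22). For S100a10 it was 0.01 (-0.10 to 0.12), and for S100a6 -0.51 with an interval that held 0 (-1.32 to 0.30). For Anxa1 (-0.33, from -2.84 to 2.18) and the untested S100a4 (-1.94, from -5.30 to 1.42) the few reads left wide intervals that held 0. These differences have no test, since 1 library per group leaves no spread for them.

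As Anxa2 and S100a10 encode a pair that assembles into 1 complex, their levels per kilobase were set against each other in each library. Before stimulation Anxa2 stood at 0.108 of S100a10 in WT (exact 95% interval 0.100 to 0.116) and at 0.250 in Yap KO (0.238 to 0.262). After stimulation it stood at 0.793 in WT (0.753 to 0.836) and 0.521 in Yap KO (0.495 to 0.549). Per kilobase of exon, S100a10 was the higher of the pair in all 4 libraries, and the gap was smallest in stimulated WT cells. By reads alone Anxa2 was the higher after stimulation, with 4872 against 1996 in WT and 3792 against 2363 in Yap KO. The order per kilobase thus rests on the exon lengths, 3731 bases for Anxa2 and 1212 for S100a10 over all annotated transcripts. Lgals1 stood 14.8 and 24.9 times above Lgals3 per kilobase in WT and Yap KO before stimulation and 16.4 and 26.2 times above it after stimulation.

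The other genes of the 3 families give the surroundings. Among 9 further annexin genes 6 were tested, of which 4 rose and 2 fell with stimulation, where 33.3 and 34.1% of all tested genes did. None was called by genotype (0 at an unadjusted p under 0.05 in edgeR, 0 with DESeq2). Anxa3 went from 5 and 8 reads to 407 and 542 in WT and Yap KO, a log2 change of 6.48 ± 0.34, and Anxa7 rose by 1.11 ± 0.13. Anxa11, which lies opposite Anxa11os, had -1.78 ± 0.17, and Anxa5, the phosphatidylserine-binding protein used as a stain for dying cells, -1.02 ± 0.13. Anxa4, which lies opposite Gm44036 and was named after its values were seen, had 20 and 76 reads before and 385 and 266 after stimulation. Its log2 ratio of Yap KO to WT was 1.65 (1.02 to 2.53) before and -0.45 (-0.68 to -0.22) after stimulation, so it turned over as for Anxa2. The response difference of Anxa4, Yap KO minus WT, was -2.1 (-2.81 to -1.38) and was not tested. Anxa8, Anxa10 and Anxa13 had 0 reads in every library.

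Among 12 further S100 genes only S100a1 and S100a13 were tested, and S100a13 fell by 1.01 on the log2 scale, from 21.4 and 26.6 CPM to 12.4 and 11.3. The neutrophil genes S100a8 and S100a9 had 15 and 26 reads in WT and 6 and 5 in Yap KO unstimulated cells, and 0 in both stimulated libraries, and S100a3 had at most 6 reads. Of 8 further galectin genes 5 were tested, of which 4 fell with stimulation and none rose (0 also at an unadjusted p under 0.05 in edgeR and with DESeq2). Over all tested genes 34.1% fell and 33.3% rose. Lgals8, which lies opposite Heatr1, fell by 2.66 on the log2 scale and Lgals9 by 1.36, from 293 and 289 CPM to 156 and 81.5. Lgals7, singled out after its values were seen, had 0 reads in WT and 118 in Yap KO unstimulated cells, at least 34.7-fold higher, and 4 and 48 stimulated reads (edgeR adjusted p = 0.00957 for genotype). It was the 1 further galectin called by genotype, and DESeq2 gave it no adjusted p.

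**Figure D5:**
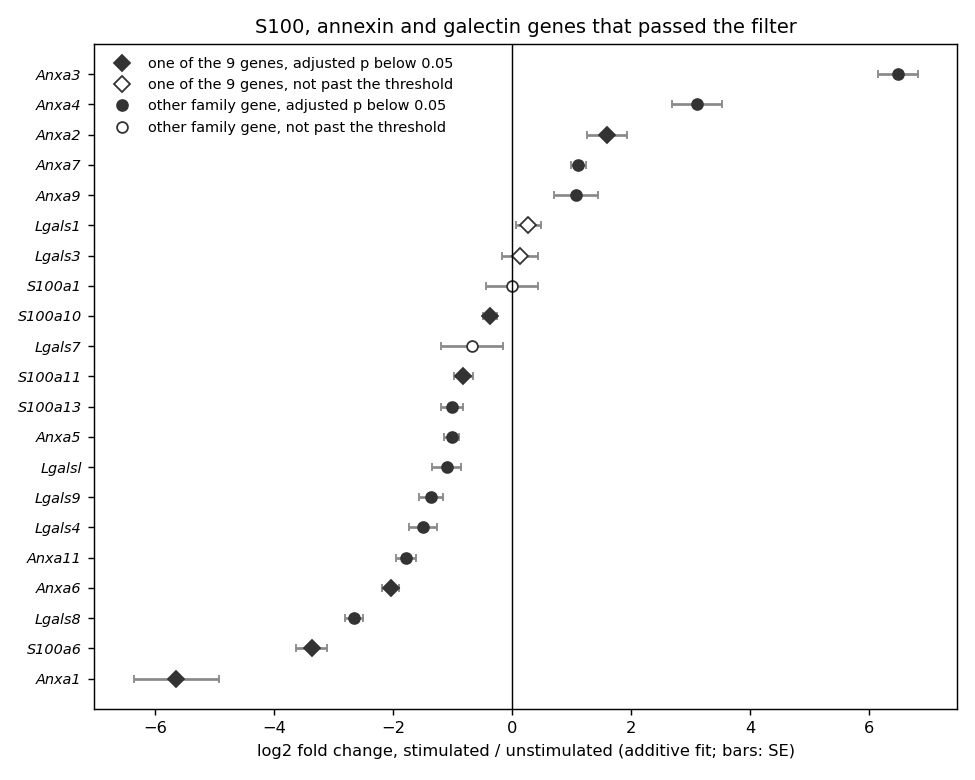
Log2 fold change between stimulated and unstimulated cells in the additive edgeR fit for the 21 S100, annexin and galectin genes that passed the filter, with standard errors; diamonds are the genes described here, circles the other family genes, and filled symbols have an adjusted p below 0.05. Anxa3 and Anxa4 are at the top, and S100a6 and Anxa1 at the bottom; the fitted values of Anxa1 and Lgals7 rest on a library with 0 reads and are no bound.

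Of 24 genes that encode partners or receptors of these proteins 19 were tested. With stimulation 11 of them fell and 6 rose, where 34.1 and 33.3% of all tested genes did. By genotype 2 were called higher in Yap KO, where 0.838% of all tested genes were. Those 2 were Ahnak, the scaffold that binds the complex of annexin A2 and S100A10, and Itgb1, an integrin chain that galectins can bind. Ahnak stood at 102 CPM in WT and 355 in Yap KO before stimulation and at 24.2 and 73.5 after it, a genotype difference of 1.70 ± 0.13 (edgeR adjusted p = 4.07e-04). Itgb1 stood at 107 and 227 and then 336 and 491 CPM, with 0.82 ± 0.15 (edgeR adjusted p = 0.0361). Lag3, an inhibitory receptor that galectin-3 can bind, went from 1.49 and 0.347 to 92.9 and 69.5 CPM and Plaur, the urokinase receptor, from 6.81 and 4.59 to 82.1 and 38.4. Cd7, a galectin-1 receptor that lies opposite another gene, went from 85.6 and 129 to 0.392 and 0.259 CPM, and Lgals3bp, a galectin-3 binding protein, from 291 and 234 to 60.8 and 34.4. The 3 genes lower in Yap KO at the unadjusted threshold were Plaur (-0.89 ± 0.18, edgeR adjusted p = 0.0573), Lag3 (-0.67 ± 0.26, edgeR adjusted p = 0.358) and Lgals3bp (-0.56 ± 0.15, edgeR adjusted p = 0.132). Fpr1 and Fpr2, the receptors of annexin A1, had 0 reads in every library, as had Plg, Plau and Dysf.

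Of 12 enzymes that shape the glycans galectins bind, all tested, 9 fell with stimulation (7 with DESeq2) and none rose (0 also at an unadjusted p under 0.05 in edgeR and with DESeq2). Over all tested genes 34.1% fell and 33.3% rose. None of the 12 was called by genotype, where 2 were higher at an unadjusted p under 0.05 in edgeR and 0 with DESeq2. St6gal1, whose sialic acid caps block galectin-1, went from 172 and 199 to 40.4 and 24.9 CPM, and St3gal6 from 66.0 and 91.7 to 16.1 and 20.7. Mgat5, which builds branched N-glycans that galectin-3 binds, had the largest genotype difference of this list, 0.73 ± 0.24 (edgeR adjusted p = 0.259), with 30.6 and 35.6 and then 11.1 and 27.6 CPM. All 3 of these enzyme genes lie opposite another gene.

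Genes with the most similar pattern were sought among the 9188 tested genes averaging 10 CPM or more, by the Euclidean distance over the 3 log2 differences from the WT unstimulated library, so over 4 libraries. Nearest to S100a6 were Samd3 (distance 0.26) and Cxcr3 (0.84), and nearest to Anxa1 were Sytl2 (0.35) and Unc5a (0.44). Samd3 stood at 14.3 (WT) and 76.6 CPM (Yap KO) before and 1.57 and 8.24 CPM after stimulation. Anxa2 was nearest to Slamf7 (0.45) and Cchcr1 (0.51), Lgals1 to Runx2 (0.50) and Zfp296 (0.61), and Lgals3 to Mapre2 (0.23) and Tefm (0.30). Slamf7 stood at 13.9 and 36.1 CPM before and 94.9 and 83.3 CPM after stimulation, so it too was higher in Yap KO before stimulation and higher in WT after it. S100a10, S100a11 and Anxa6 had neighbours at distances of 0.05 to 0.15, led by AU040320, Gng2 and Tpst2. Among the members, S100a10 and S100a11 were the closest pair (0.53), then Lgals1 and Lgals3 (1.15), and Anxa1 and Anxa2 were the farthest apart (8.46). All distances of Anxa1 rest on 0 and 2 stimulated reads and so depend on the prior count of 2 in the log2 values.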

How the data were processed

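For each library the authors deposited raw counts for Ensembl identifiers, with htseq-count's summary entries. The submitters' processing notes name the build mm9. The aligner, annotation release, strand setting and counting mode were not given there or in the labels. The tables hold identifiers of later releases, so positions are from GENCODE M21 (GRCm38). Reads in genes made up 35.6 to 39.7% of entries, and the summary entries (reads in no gene 48.3 to 52.5%) were left out of library sizes. Of 50686 identifiers, 50462 matched a symbol.

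Genes were kept with filterByExpr by state (minimum count 10) and scaled with TMM (factors 0.968 to 1.04). The test was edgeR 4.0.16's quasi-likelihood F test of an additive model (genotype plus state) on the 4 libraries, Benjamini-Hochberg adjusted over all genes at 0.05. It had 1 residual and 7.98 prior degrees of freedom. Its p-values thus rest on the size of a difference, on how alike the responses were and on the spread shared over genes, not on replicates. On simulated data this test recovered 70.0% of 2-fold and 95.0% of 4-fold state changes and 68.0 and 100% of genotype changes among 15394 genes. It also called 13 unchanged genes by state and 6 by genotype. The simulated counts had a single fixed dispersion, 100 changed genes per size and no response that differed between genotypes. They are unlike the real data in this, so the shares are not the power of the test here. Pairs of libraries were described by ratios with exact 95% intervals (Clopper-Pearson, conditional binomial), which cover counting error only; log2 ratios used a prior count of 2 and size rules 2-fold. The reads carry no known molecular identifiers. A count of 0 was bounded by 3 counts in that library. Alternatives were DESeq2 1.42.0, other scalings, filters and terms. Members and gene lists were chosen with earlier results of these data known. For each list the genes named were at most the 2 largest rises and 2 largest falls, or genotype differences in each direction, among genes averaging 10 CPM or more; others were named after their values were seen. The 9 members are all named. The call of 1 marker gene is not reported here.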

Additional observations from a re-analysis of the deposited data

Results flagged for a closer look

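Lgals1 and Lgals3 were the 2 members whose stimulated library lay above the unstimulated one in WT and below it in Yap KO. The response in Yap KO minus that in WT was -0.91 on the log2 scale for Lgals1 and -0.82 for Lgals3. With 1 library per group the difference was not tested, and the Yap KO interval of Lgals3 held no change.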

How the results depend on the processing

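Every title carries the replicate number 1, so no pairing by that number was possible. The additive fit compares the states within each genotype. With 1 library per group none could be left out. Of 154 alternative values for single members, 146 kept their direction and side of the threshold, 8 lost the call and none reversed. The 8 were Anxa2 by state with DESeq2 and the robust fit, S100a10 by state with DESeq2, no filter and state only, Lgals1 by genotype with no filter and genotype only, and S100a6 by genotype with genotype only. Of 100 alternative counts over the members 90 stayed within 1.5 times. The count that rose with stimulation, 1, became 0 with DESeq2, 0 with the robust fit and 0 without genes opposite another gene, where Anxa2 is not tested. The count called higher in Yap KO, 2, became 1 with no filter, where 0.0913% of all genes were called instead of 0.838%, and 0 with genotype only, where 0% were. With a 1.5-fold in place of a 2-fold size rule, members higher with stimulation numbered 3 in WT and 1 in Yap KO, members higher in stimulated Yap KO cells 2, and members with a smaller response in Yap KO 3. With a 4-fold rule 1 member was higher in unstimulated Yap KO cells. Upper-quartile scaling shifted the median log2 stimulation ratio of all genes by -0.12 in WT and -0.107 in Yap KO, with no member's direction changed in the additive fit. The earlier quasi-likelihood method of edgeR, added after the data were seen, changed no member's call. Depth limits S100a4 and stimulated Anxa1, and the cause of these dependences was not tested.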
